A study of Homo sapiens with 172 samples.

Results

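Chromosome 14 is an acrocentric human chromosome, and its contacts with the nuclear lamina were followed along the long arm in single cells. Its members were chosen by position: all 100 kb bins of chromosome 14 that held a value and were not 0 in every column, which gave 879 of the 26414 covered bins of the series. The file lists 1074 bins for this chromosome, of which 193 carried no value and 2 were 0 throughout. Covered bins began at 14:19000001 and ended at 14:107300000 in hg19, so the short arm and the centromere were not measured. Between these limits only the bins 14:19200001 to 19400000, 14:19500001 to 19600000 and 14:19900001 to 20000000 were missing.

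All samples were haploid KBM7 cells, a near-haploid human leukaemia line, and all were of the single clone 5-5. Each carried Dam, a bacterial adenine methyltransferase, fused to LaminB1, and Shield1, a ligand that stabilises the fusion, was given at 0.5 nM for 15 h. The smallest 2% of cells that expressed both Fucci cell cycle markers were sorted one by one. There was no second group, so no comparison between conditions and no test was possible. SDs are over cells, which are not replicates, and describe variation from cell to cell.

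The lamina is a meshwork of intermediate filament proteins under the inner nuclear membrane. Stretches of chromatin that touch it, called lamina-associated domains, are known to be long, poor in genes and mostly silent, and gene-rich chromatin between them tends to lie in the nuclear interior. A domain does not touch the lamina in every cell, which bulk maps cannot show. In DamID the DNA that comes near the fusion protein is methylated at GATC, cut there, amplified and counted, so a high value marks contact at some time during the induction.

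A gene table of another build, GRCh38.p14 of RefSeq, lists 605 protein-coding genes on chromosome 14. Its positions were not set against the bins, so none of the stretches below is given a gene, and only the order of the genes is described here. Near the start of the long arm come 24 olfactory receptor genes, 12 ribonuclease genes of the RNASE family and the T cell receptor loci TRA and TRD, followed by the cardiac myosin genes MYH6 and MYH7. Next come NPAS3, a transcription factor of neurons, NKX2-1, which acts in lung and thyroid development, PAX9, and the neuronal cell surface genes LRFN5 and MDGA2. HIF1A, the hypoxia regulator, and FOS, an immediate early gene, come later, then NRXN3, a presynaptic neurexin, TSHR, the receptor for thyrotropin, FLRT2, an adhesion protein, and GALC, a lysosomal galactosylceramidase. The order closes with BCL11B, the imprinted pair DLK1 and MEG3, the kinase gene AKT1, and IGH, the immunoglobulin heavy chain locus. In the same table the widest intervals without a coding gene lie between LRFN5 and FSCB, SEL1L and LOC124903401, VRK1 and BCL11B, FLRT2 and GALC, and FBXO33 and LRFN5.

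The deposited value of a bin is the ratio of observed over expected reads. Each of the 168 columns correlated best with the column whose sample number was 86 higher or lower. In 82 of these 84 pairs the partners were closer to each other than sampling noise alone would leave them, and the exceptions were cells 54 and 56. Each pair was taken as 1 cell with the mean of both ratios, which left 84 cells, and which of them came from separate cultures is not labelled. Reads recovered from the ratios numbered 7134 to 418937 per cell in the deeper column (median 63700), of which 125 to 13468 were on chromosome 14 (median 2147). A ratio of 1 stood for 2.66 reads in a median bin of the chromosome and a median cell, so single calls in shallow cells rest on few reads. Shallow cells can miss contacts, and they can also show calls in bins that deep cells seldom contact.

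A bin counted as touching the lamina where the ratio of a cell reached 1. On this measure chromosome 14 had 27.3% ± 9.30 of its bins in contact (SD, n = 84 cells), against 27.8% ± 6.59 in the rest of the genome. Cells ranged from 7.62% to 45.7% on chromosome 14, with a median of 28.5%. Within cells the difference between chromosome 14 and the rest was -0.51 ± 7.71 points, and chromosome 14 was the higher in 37 cells and the lower in 47. The mean difference was far smaller than its spread over cells. Chromosome 14 had rank 11 of 22 chromosomes in mean contact share, counting the 2 derivatives that join parts of chromosomes 9 and 22, in the middle of the order. Chromosome 8 had no covered bin, so it is missing from this order and from the rest of the genome.

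**Figure D1:**
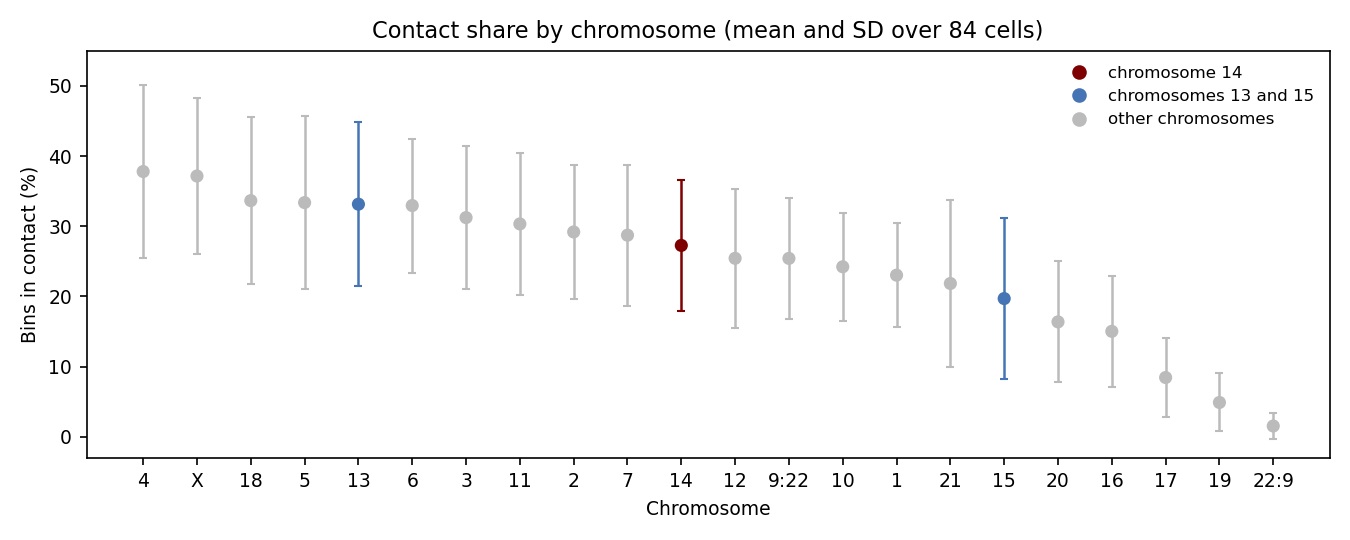
Mean percent of bins in contact for each chromosome with values, ordered from high to low, with bars for the SD over 84 cells. Chromosome 14 (dark red) stood at 27.3%, between the chromosomes marked in blue, 13 at 33.1% and 15 at 19.7%.

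The average hides a strongly divided arm. The contact frequency of a bin is the percent of the 84 cells in which it was in contact. Of the 879 bins, 262 (29.8%) were in contact in at least 50% of cells, where the background over all covered bins was 30.7%. At the other end 334 bins (38.0%) touched the lamina in under 5% of cells, against a background of 36.7%, and 51 bins (5.80%) in none, against 6.19%. Bins contacted in none of 84 cells allow a frequency of up to 3.57%, if 3 cells are taken as the limit of a count of 0. Bins of 20 to 80% made up 47.7%, beside 47.4% of all covered bins, and 459 bins under 20% made up 52.2%, beside 52.3%. These shares lay close to the background, so chromosome 14 was ordinary in how many of its bins fell in each class.

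A single bin reached 80%, where the background was 0.303%. It was 14:87600001 to 87700000, contacted in 68 of 84 cells (81.0%, exact Clopper-Pearson 95% interval 70.9 to 88.7%, counting error only), with ratios from 0 to 13.3 and a median of 2.28. The next highest, at 67 cells each (79.8%), were 14:84400001 to 84500000, 14:84900001 to 85000000 and 14:87200001 to 87300000. All 4 bins lay within the same distal part of the arm. They were picked as the highest of 879, which the interval does not allow for.

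Along the arm, bins of high frequency were gathered in a proximal and a distal domain, separated by a long stretch of mostly free chromatin. Their limits were set after the landscape was seen: from the first to the last stretch of at least 3 Mb at 20% or more, before and after the longest free stretch. The proximal domain, 14:25200001 to 50100000, had 47.4% ± 20.8 of its 249 bins in contact (SD, n = 84). The distal domain, 14:78700001 to 89000000, had 60.4% ± 21.9 of its 103 bins in contact. The first of them held 49.3% of all contacts on the chromosome in 28.3% of the bins, and the other held 26.0% of the contacts in 11.7% of the bins.

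The remaining segments were far lower. The start of the arm, 14:19000001 to 25200000, had 11.7% ± 8.00 of bins in contact, the middle, 14:50100001 to 78700000, had 13.6% ± 7.33, and the terminal segment, 14:89000001 to 107300000, had 7.40% ± 6.23. In the terminal segment 71.0% of bins stayed under a frequency of 5%, and 1 of 183 reached 50%. The arm thus ran from low to high, low, high and low again towards its tip.

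**Figure D2:**
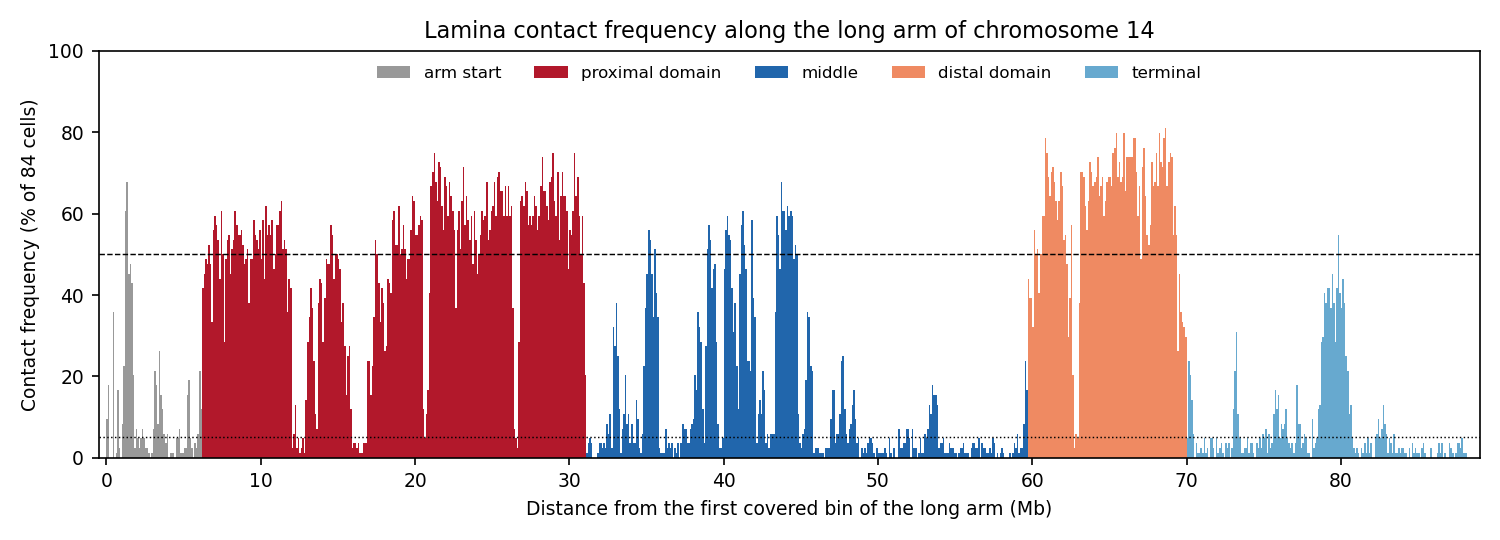
Contact frequency (percent of 84 cells) of each 100 kb bin against its distance from the first covered bin of the long arm, coloured by segment, with lines at 50% (dashed) and 5% (dotted). The proximal domain averaged 47.4%, the distal domain 60.4%, and the segments around them between 7.40% and 13.6%.

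In steps of 10 Mb the highest values were 59.3% ± 25.1 from 40 to 50 Mb, where 90 of 100 bins were at 50% or more, and 56.2% ± 20.1 from 80 to 90 Mb, with 75 of 100. No cell was without contact in either of these windows. The windows from 20 to 30 Mb and from 30 to 40 Mb followed, with 30.5% ± 17.1 and 34.0% ± 19.2. Windows from 50 to 60, 60 to 70 and 70 to 80 Mb had 17.7% ± 11.1, 18.3% ± 10.9 and 9.98% ± 6.35, and that from 90 to 100 Mb 11.1% ± 9.82. The lowest was the last, from 100 Mb to the end, with 2.32% ± 3.70, where 40 of 84 cells had no contact at all. This last window had 0.78% ± 1.86 in the 35 cells with at least 100000 reads. After thinning to 30000 reads in 61 cells it had 2.99% ± 3.97. The 2 highest windows differed by less than the SD over cells, while the gap between the highest and the lowest exceeded it. The window before 20 Mb held only 6 bins.

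Stretches of consecutive bins contacted in at least 50% of cells numbered 37 and covered 26.2 Mb. Their median length was 0.3 Mb, and 7 of at least 1 Mb held 15.8 Mb. The longest was 14:82100001 to 86000000, of 3.9 Mb, with a mean frequency of 69.5% and bins between 56.0% and 79.8%. It was parted by the single bin 14:86000001 to 86100000, at 48.8%, from the third longest, 14:86100001 to 88400000, of 2.3 Mb with a mean of 68.2%. With that bin bridged, a stretch of 6.3 Mb resulted. The longest contacted stretch therefore depended on 1 bin just under the limit.

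Further contacted stretches of at least 1 Mb lay mostly in the proximal domain. The second longest was 14:45800001 to 48900000, of 3.1 Mb, with a mean of 63.6%. It was followed by 14:43100001 to 45300000 (2.2 Mb, 61.6%), 14:79500001 to 81200000 (1.7 Mb, 64.4%) in the distal domain, and 14:40000001 to 41600000 (1.6 Mb, 65.6%). The last of 1 Mb was 14:41700001 to 42700000, with 59.5%. The eighth by length, 14:37500001 to 38400000, had 0.9 Mb and 55.0%. The 2 highest means belonged to the distal domain, but all 8 means differed by less than the SDs over cells, which ran from 26.6 to 36.8 points.

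Within single cells these stretches were seldom touched in full and seldom missed in full. In the 3.9 Mb stretch every cell had contact, 8 cells had every bin in contact, and 63 cells had at least 50% of its bins in contact. Cells ran from 7.69% to 100% of its bins, with a median of 74.4%. In the 3.1 Mb stretch 3 cells had no bin in contact, 2 had all and 79 some, with a median of 74.2%. In the 2.3 Mb stretch these numbers were 1, 7 and 76, with a median of 73.9%. Partial contact was thus the usual state of the long stretches at this depth.

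The shorter stretches were contacted in part as well. Cells without any contact numbered 1, 2, 1, 4 and 10 in the stretches of 2.2, 1.7, 1.6, 1.0 and 0.9 Mb, and cells with every bin in contact 7, 15, 12, 9 and 18. Shorter stretches have fewer bins, which makes both extremes easier to reach. Of the 8 stretches, a median of 6 had at least 50% of their bins in contact in a cell. In 20 cells all 8 did, in 19 cells 7 did, and in 7 cells none did. The 7 cells with none had 7134 to 50096 reads in the deeper column, below the median of 63700 over cells.

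**Figure D3:**
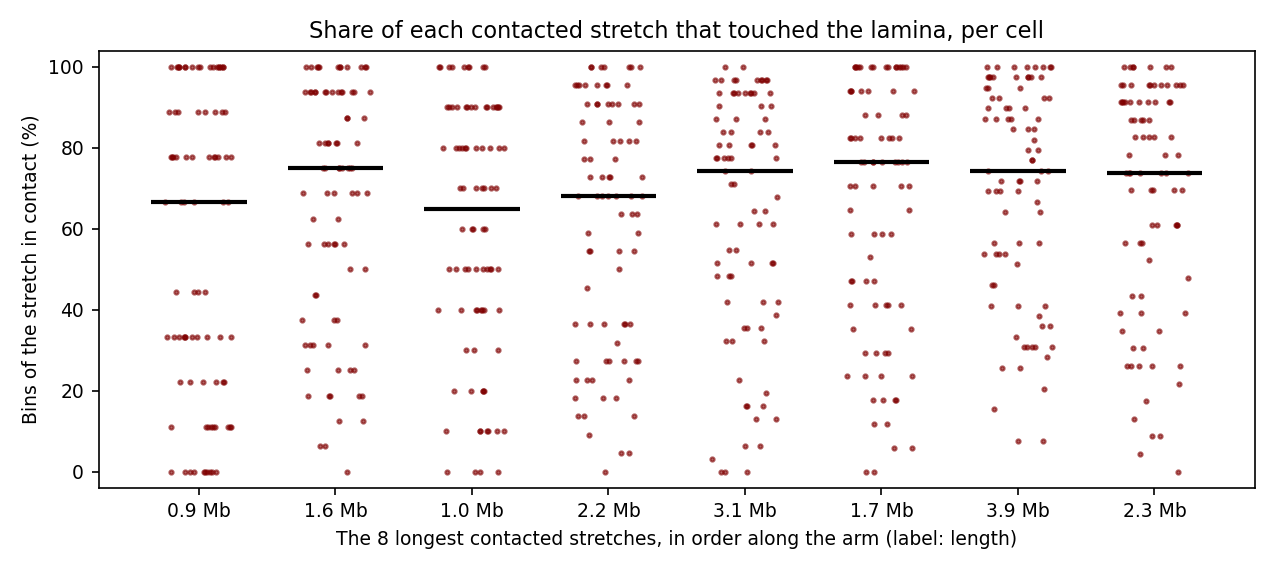
Percent of the bins of each of the 8 longest contacted stretches that were in contact, with 1 point per cell (n = 84, spread sideways for sight) and a line at the median, in order along the arm. Medians ran from 65.0% to 76.5%, and points fill the range from 0% or 7.69% to 100% in each stretch.

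The proximal domain consisted of blocks rather than a solid domain. At a limit of 20% it held 14:25200001 to 31000000 (5.8 Mb, mean 51.3%), 14:36200001 to 39500000 (3.3 Mb, 48.6%), 14:39900001 to 45400000 (5.5 Mb, 60.4%) and 14:45700001 to 50100000 (4.4 Mb, 60.4%), with a lesser one at 14:32700001 to 34500000 (1.8 Mb, 43.7%). The distal domain held 14:78700001 to 81700000 (3.0 Mb, 54.7%) and 14:82000001 to 89000000 (7.0 Mb, 65.2%), the longest of the chromosome at this limit. SDs over cells were 24.1 to 33.4 points. The means of neighbouring blocks differed by less than these SDs, and differences between blocks within cells were not taken.

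Narrow gaps between blocks had low frequencies by the way they were picked, since their bins lay under the frequency limit of the blocks. The counts of cells come from the same values, so they describe the gaps and are no test of them. The gap 14:45400001 to 45700000, of 3 bins, had a mean frequency of 4.76%. In 38 cells at least 3 of the 5 bins on either side were in contact, and 6 of these cells had contact in any bin of the gap. The gap 14:81700001 to 82000000, also of 3 bins, had 4.37%, with contact in 1 of the 28 cells with both sides at the lamina. The gap 14:39500001 to 39900000, of 4 bins, had 11.0%, with contact in 13 of 43 such cells. In these 3 gaps no cell with both sides in contact had contact in every gap bin. The expected reads of the gap bins, on a relative whole-number scale with a chromosome median of 316, were at least 239. Each gap held a bin below that median, and the part of read depth in the gaps was not tested.

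Frequency changed abruptly at some borders. The 5 steps given here were picked as the largest on the chromosome, so their sizes and counts of cells describe them and are no test. Other edges were more gradual. For example, the bins from 14:36200001 to 36500000, at the start of a block, had 22.6%, 34.5% and 53.6%. The sharpest step, between the means of 0.5 Mb on either side, was at 14:40000001, with 68.6% to the right and 16.9% to the left (51.7 ± 33.2 points, SD over cells), and the right side was the higher in 75 cells and the lower in 3. At 14:82100001 the right side had 65.5% and the left 14.3% (51.2 ± 34.9 points, higher in 69 cells and lower in 4). At 14:45800001 the right side had 64.5% and the left 16.0%. These 3 upward steps lay beside the 3 narrow gaps above, inside the domains, so the 0.5 Mb on their left was mostly gap. Downward steps were of similar size, with 6.67% to the right and 56.2% to the left of 14:50000001, and 5.95% against 54.3% at 14:63800001. The first of these closes the proximal domain, and 70 of 84 cells had the lower value on its right side.

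Within the mostly free middle there were isolated contacted islands. The highest was 14:62300001 to 63800000, of 1.5 Mb at 20% or more, with a mean of 55.6% ± 34.9 and a highest bin of 67.9%. Lesser islands were 14:53800001 to 54800000 (42.0%), 14:57800001 to 58600000 (44.2%), 14:59000001 to 59900000 (44.8%) and 14:60000001 to 61100000 (42.1%). In the terminal segment, 14:97700001 to 99500000 had 37.3% ± 34.8 over 1.8 Mb, and 15 of 84 cells had no contact there. All of these islands were shorter than the 6 main blocks, which follows from the limit of 3 Mb that defines the blocks. The island at 55.6% had a higher mean than 3 of these blocks, which had 51.3%, 48.6% and 54.7%, while the others were lower than all 6.

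Free stretches, with every bin contacted in under 5% of cells, numbered 56 and covered 33.4 Mb, of which 22.6 Mb were in 10 stretches of at least 1 Mb. The longest was 14:72900001 to 78000000, of 5.1 Mb, with a mean frequency of 1.91%, which ended 7 bins before the distal domain. The second was the tip of the arm, 14:102500001 to 107300000, of 4.8 Mb, with 1.49% and 14 of its 48 bins contacted in no cell. Both were longer than the longest contacted stretch at 50%, of 3.9 Mb, but this order turned wherever the bin at 48.8% was included, for example in the cells of at least 100000 reads, with 6.3 Mb contacted and 5.1 Mb free. They were followed by 14:67600001 to 70300000 (2.7 Mb, 1.94%), 14:89500001 to 92000000 (2.5 Mb, 2.19%), 14:99700001 to 101300000 (1.6 Mb, 2.16%), 14:92400001 to 93900000 (1.5 Mb, 2.62%), 14:50100001 to 51400000 (1.3 Mb, 2.29%) and 14:64800001 to 65900000 (1.1 Mb, 1.73%).

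Contacts in the free stretches were rare by the limit of 5% that defines them. In the 5.1 Mb stretch 53 of 84 cells had no contact, and cell 48 had the most, 21.6% of its bins. At the tip 51 cells had none, and cell 48 again had the most, 10.4%. Cell 48 also led in 14:67600001 to 70300000, with 25.9%, and in 14:50100001 to 51400000, with 61.5%, where it was the only cell with at least 50% of the bins. This cell had 162 runs on chromosome 14, the most of all, with a mean of 1.72 bins at 264841 reads. Its paired columns matched in 82.5% of calls on chromosome 14, against a median of 93.3% over cells. Whether its calls in free chromatin were true contacts was not tested. The 3 cells with most contacts held 30.5% of the 82 contacts of the longest free stretch, and 31 cells had any. The share in the longest contacted stretch, 5.14%, is no measure to set beside it. There 8 cells had every bin in contact, so 3 cells could not hold more. With cells 48, 54 and 56 left out, the longest free stretch had 5.5 Mb in place of 5.1 Mb.

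The ends of the covered arm differed. The last 2 Mb of the chromosome had a mean frequency of 1.69% ± 3.38, and 21 of 84 cells had any contact there. The first 2 Mb of covered bins had 25.5% ± 18.8, with the highest bins at 14:20300001 to 20400000, 67.9% (ratios 0 to 17.0, median 2.24), and at its neighbour 14:20200001 to 20300000, 60.7%. The 3 bins from 14:20400001 to 20700000 followed with 45.2%, 47.6% and 42.9%. Before 20.2 Mb bins had expected reads of only 2 to 25 on the whole-number scale, so that 1 read could make a call, and ratios up to 95.1 occurred. Frequencies there are not comparable with those further along.

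Contact strength followed contact frequency. In bins contacted in at least 50% of cells the median ratio of the calls was 2.47 and 16.2% of values were 0. In bins under 5% the median ratio of the calls was 1.46 and 81.0% of values were 0, with the classes of 5 to 20% and 20 to 50% in between at 1.65 and 2.03. Calls in free chromatin thus lay nearer to the cutoff. Frequency and ratio come from the same reads, and whole reads set the lowest ratio a shallow cell can show. In the 35 cells with at least 100000 reads the same order held, with 2.41, 1.92, 1.53 and 1.21 from the highest to the lowest class.

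Runs of contacted bins within a cell describe how far a contact extended. Cells had 70.8 ± 26.1 runs on chromosome 14, with a mean length of 3.84 ± 2.00 bins, against 3.72 ± 1.52 bins in the rest of the genome (SD, n = 84). The difference was 0.12 ± 1.13 bins and the run was longer on chromosome 14 in 44 cells, so it did not exceed the spread. Mean run length ranged over cells from 1.24 to 10.1 bins. Of all 5946 runs, 51.1% were single bins, while the 436 runs of at least 10 bins (1 Mb) held 40.1% of all contacts. Such a run was present in 74 of 84 cells.

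The longest runs fell in the same place in several cells. Cells 51 and 76 each had a run from 14:82000001 to 88400000, of 6.4 Mb, with mean ratios of 2.84 and 3.88. Cells 60 and 61 each had a run from 14:82100001 to 88100000, of 6.0 Mb. Cell 35 had the longest run outside this stretch, 14:25100001 to 31000000, of 5.9 Mb, which covered the first block of the proximal domain and the bin before it. These 5 cells had 164182 to 399641 reads in the deeper column, above the median of 63700. Over cells the longest run had a median of 2.15 Mb and ranged from 0.3 to 6.4 Mb. Mean run length and log10 reads of a cell had a Pearson correlation of 0.74 over the 84 cells, both being taken from the same libraries.

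**Figure D4:**
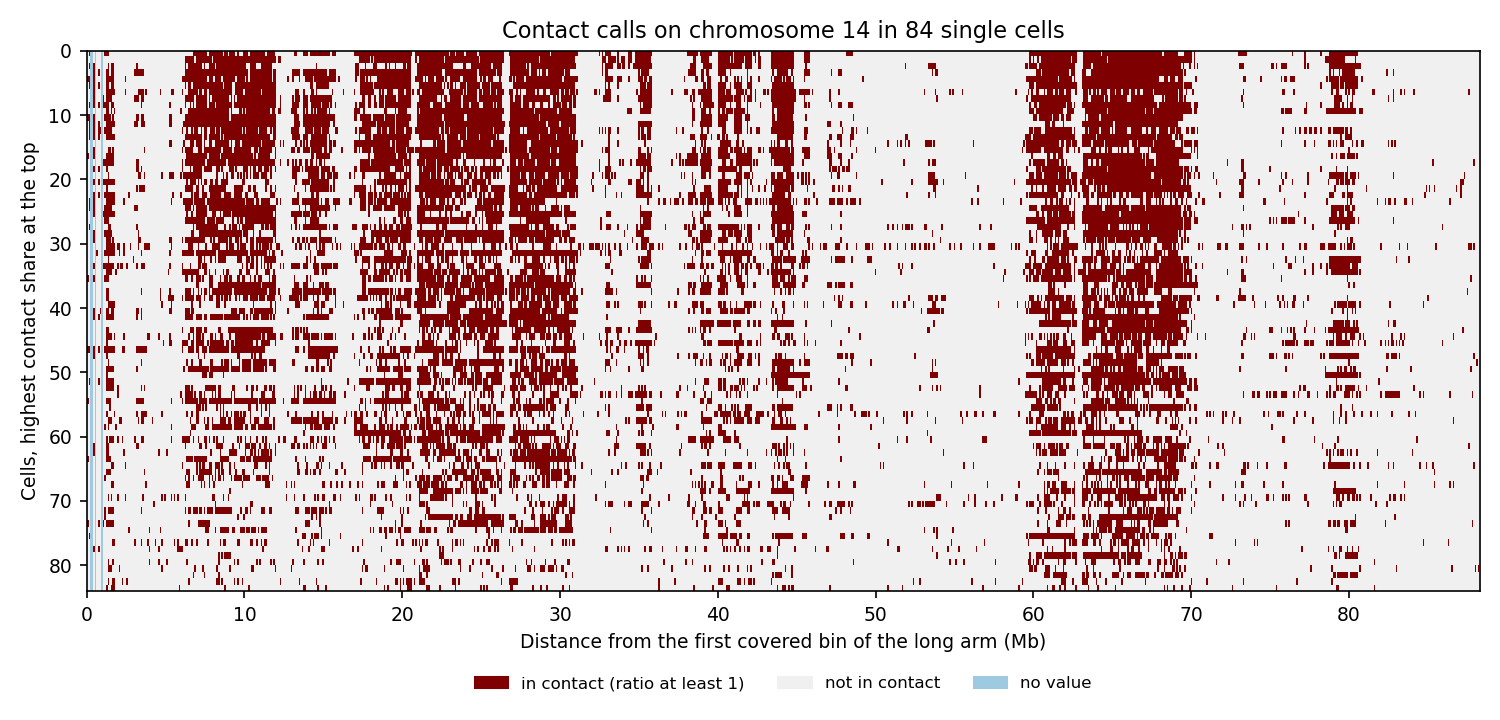
Contact calls of 84 cells (rows, highest contact share on chromosome 14 at the top) along the long arm (distance from the first covered bin, Mb). Dark red marks bins in contact, light grey bins not in contact, and blue bins without a value; the blocks of both domains recur across cells, with 7.62% to 45.7% of bins in contact per cell.

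Cells varied in how much of chromosome 14 lay at the lamina. Cell 46 had the highest share, 45.7%, where the rest of its genome had 27.9%, and cell 74 followed with 41.2% against 42.4% in the rest. Cells 62 and 67 had 40.0% each, against 27.5% and 26.3% in the rest. The lowest shares were 7.62% in cell 57, 8.53% in cell 19, and 8.99% each in cells 16 and 32. Cells 57, 19 and 16 were shallow, with 17503, 7134 and 13034 reads in the deeper column.

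Cell 32 was not shallow. It had 229150 reads in the deeper column and 36.1% of the rest of its genome in contact, which is 27.2 points more than the 8.99% on chromosome 14. Only 1.09% of its reads were on chromosome 14, against a median of 3.21% over cells. Cell 72, with 10.6% against 32.0%, and cell 70, with 10.4% against 26.6%, were the next furthest below the rest of their genome. In all, chromosome 14 lay over 10 points below the rest in 6 cells and over 10 points above it in 6 cells. Over the 84 cells the share on chromosome 14 had a Pearson correlation of 0.57 with the share of the rest and of 0.51 with log10 reads. Depth is shared by both shares of a cell.

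The proximal and distal domains did not always go to the lamina together. The distal domain was the higher in 65 of 84 cells, by 13.0 ± 21.1 points on average. Both had at least 50% of bins in contact in 35 cells, only the distal domain in 22, only the proximal domain in 8, and neither in 19. Cell 70 had 67.0% of the distal and 3.61% of the proximal domain in contact, at 128255 reads. Cell 71 had 65.0% of the distal and 4.82% of the proximal domain, at 51959 reads. The reverse was seen in cell 47, with 37.9% of the distal and 73.5% of the proximal domain, at 68756 reads.

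**Figure D5:**
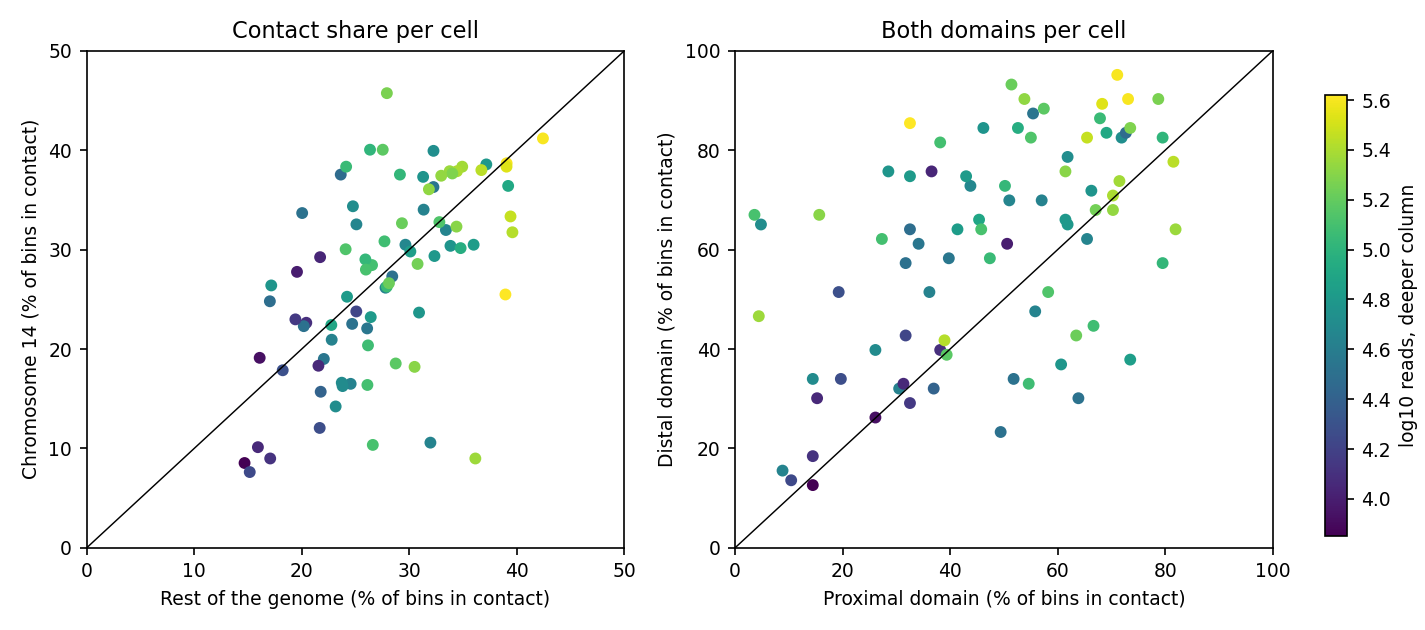
Left, percent of bins in contact on chromosome 14 (vertical) against the rest of the genome (horizontal) in each of 84 cells; right, the distal domain (vertical) against the proximal domain (horizontal). Colour gives log10 reads in the deeper column and lines mark equal values; chromosome 14 was above the rest in 37 cells and the distal domain above the proximal one in 65.

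Over cells the contact shares of the distal and proximal domains had a Pearson correlation of 0.52 (n = 84), which was 0.32 after subtraction of a linear fit on the share of the rest of the genome. It was 0.30 in the 35 cells with at least 100000 reads and 0.22 in 61 cells thinned to 30000 reads, the lowest of the alternatives, while it was 0.63 in even-numbered cells and 0.72 in cells 1 to 29, the highest. Between the longest contacted stretches the median correlation fell with distance. It was 0.66 for gaps under 3 Mb, 0.48 for 3 to 20 Mb and 0.43 for over 20 Mb. Pairs of blocks within the proximal domain had 0.53 to 0.75, and pairs across both domains 0.19 to 0.59. Single pairs of blocks did not all keep to this order, as picked examples show. The blocks 14:39900001 to 45400000 and 14:45700001 to 50100000, 0.3 Mb apart, had a correlation of 0.75, or 0.68 in the deep cells, but both distal blocks, likewise 0.3 Mb apart, had 0.52, or 0.26 in the deep cells. The blocks 14:45700001 to 50100000 and 14:82000001 to 89000000, 31.9 Mb apart, had 0.59, or 0.26 in the deep cells. The blocks 14:25200001 to 31000000 and 14:78700001 to 81700000, 47.7 Mb apart, had 0.19, or 0.07 in the deep cells. The blocks of a cell share its library, depth and overall contact share, so these values are descriptions only.

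For single bins of 20 to 80% the mean correlation over cells was 0.47 for adjacent bins, close to the median of 0.47 over the 20 other chromosomes with such pairs. It was 0.29 at 1.1 to 2 Mb, 0.18 at 5.1 to 10 Mb and 0.13 at over 20 to 50 Mb, where the medians of the other chromosomes were 0.29, 0.20 and 0.14. Beyond 50 Mb it was 0.06 over 12757 pairs, against a median of 0.12 and a range from -0.0014 to 0.16 over 18 other chromosomes, of which 17 were above chromosome 14. Bins of chromosome 14 and bins of other chromosomes correlated at 0.08. In the 35 deep cells it was -0.0020, below all 18 others, which ran from 0.018 to 0.18, and the value between chromosomes was 0.026. Distant bins of chromosome 14 thus had values close to those between chromosomes, and neither order was tested.

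Chromosomes 13, 15 and 21 are likewise acrocentric and were compared because of this shape, chromosome 21 after its values were seen. Chromosome 22 is acrocentric too, but has values only in the derivatives with chromosome 9 and was left out. The derivative 22:9 had 1.53% ± 1.79 of bins in contact over 142 covered bins. Chromosome 14 was below chromosome 13, which had 33.1% ± 11.7 of bins in contact, by 5.88 ± 11.2 points, and was the higher in 24 of 84 cells. It was above chromosome 15, which had 19.7% ± 11.4 over 510 covered bins, the rest of it being not analysed here, by 7.57 ± 12.6 points, and was the higher in 67 cells. It was above chromosome 21, which had 21.8% ± 11.9 over 353 covered bins, by 5.42 ± 12.9 points, and was the higher in 58 cells. None of these 3 differences exceeded the spread over cells. Bins at 50% or more made up 29.8% of chromosome 14, 39.3% of chromosome 13, 9.41% of chromosome 15 and 19.0% of chromosome 21, and the longest such stretches had 3.9, 3.3, 1.5 and 0.8 Mb in the same order. Mean runs were 3.84 ± 2.00, 4.00 ± 2.18, 2.81 ± 1.44 and 3.08 ± 1.74 bins.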

How the data were processed

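Single-cell DamID libraries were made from 1 group of KBM7 cells. The authors used cutadapt and Bowtie2 2.1.0 with hg19, per the submitters' processing notes. They deposited 1 table with a ratio of observed over expected reads per 100 kb bin for 168 of 172 labelled samples. Duplicate handling and the basis of the expected reads were not given in the sources used here. Ratios above 0 came out as whole reads within 0.02 in 100% of values. Thinning drew 30000 reads from each lower-numbered column with a fixed seed.

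Columns n and n + 86 were averaged, as 1 cell. Runs and stretches ended at bins without a value. Correlations are Pearson's, over cells. Named regions were the 8 longest contacted and the 8 longest free stretches, the highest bins, the 5 sharpest steps at least 2 Mb apart, and the extreme cells and runs. The members, lists and alternatives were chosen with earlier results of these data known, and the domains, blocks, gaps, islands and further cells after this landscape was seen. The code was tested on simulated data with planted stretches and correlations (numpy 2.4.6, pandas 2.3.3, scipy 1.17.1). PCR reads carry no molecular identifiers, so intervals cover counting error only. Sequences were not used, since no hg19 genome was at hand.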

Additional observations from a re-analysis of the deposited data

How the results depend on the processing

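No paired analysis was possible because all cells form 1 group. Of 302 values under the alternatives, 274 stayed within 1 SD or, for percents, lengths and correlations between domains or distant bins, within 1.5-fold. This SD was over cells, except for the correlation of adjacent bins, where it was over pairs of bins. The SD over cells is wide, so this limit is easily met and the count is a weak check. The window from 40 to 50 Mb counted as within it at a cutoff of 2, with 36.9% against 59.3%. The cells with at least 100000 reads, and all alternatives for the domains and for bins over 50 Mb apart, were added after seeing the data. The contact share of chromosome 14 was 16.1% at a cutoff of 2. Bins at 50% or more made up 15.9% at a cutoff of 1.5 and 4.10% at 2, and bins under 5% made up 17.0% at a cutoff of 0.5. Higher cutoffs lower these calls by construction. Bridging single bins raised the mean run to 6.85 bins, also by construction. Adjacent bins had a correlation of 0.324 at 30000 reads per cell, and the cause was not tested. The difference between chromosome 14 and the rest ran from -0.76 to -0.13 points, and the distal domain stayed above the proximal one by 8.26 to 17.7 points. The longest contacted stretch ranged from 0.4 Mb at a cutoff of 2 to 6.4 Mb at 0.5, and was 6.3 Mb, with the bin at 48.8% inside it, in cells of at least 100000 reads, in even-numbered cells and under 5 further alternatives. The longest free stretch ranged from 0.7 Mb at a limit of 2% to 5.6 Mb at a cutoff of 1.5 or 2 and at a limit of 10%, and was 2.5 Mb in even-numbered cells, 2.7 Mb in cells 1 to 29 and 3.0 Mb after thinning. The correlation beyond 50 Mb ran from -0.0035 to 0.08. Depth limits the calls: in 61 cells the share of chromosome 14 was 26.6% ± 6.96 after thinning to 30000 reads and 29.4% ± 8.18 before, with 23 shallower cells left out.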
